A study of Homo sapiens with 12 samples.

Results

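The response that siRNA against ETS1 and siRNA against ZNF783 had in common was measured by RNA sequencing in 22Rv1. This established line of human prostate cancer cells was derived from a xenograft tumour. Each siRNA was compared with its own 3 control libraries, so no control library was shared between the 2 experiments. The contrast was the mean of the 2 differences, and the genes described are those called in each experiment in the same direction. A call is an adjusted p below 0.05 in edgeR's quasi-likelihood test. The deposited tables list 61860 genes, of which 19594 were tested, and 194 of them moved the same way with both siRNAs. Of these 83 were higher and 111 were lower than in the controls. Without replicate 1 of the ETS1 siRNA group, which stood apart from its group, 1574 of 20018 genes tested moved the same way.

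The series concerns phosphorylated RB, the transcription factor ETS1 and sensitivity to CDK4/6 inhibitors. The 4 groups of 3 libraries are 22Rv1 cells with ETS1 knocked down by siRNA, the controls of that experiment, cells with ZNF783 knocked down by siRNA, and the controls of that second experiment. All were cultured in the same serum-supplemented medium, and nothing beyond the knockdown distinguishes the groups in the labels. The siRNA sequences, the content of the controls and the time of harvest are not given in the sources used here. Labels do not tell separate cultures from repeat libraries, so the p-values refer to the spread between these libraries alone, and that spread could be technical.

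A small interfering RNA (siRNA) is a short duplex whose guide strand is loaded into an Argonaute protein and directs cleavage of a matching messenger RNA. The same guide can lower other transcripts through its seed, and transfection itself can alter transcription. ETS1 is the founding member of the ETS family of transcription factors. ZNF783 is a zinc finger protein. The question asked of the joined data is which transcripts changed whichever of the targets was silenced.

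Total counts ran from 22958421 to 48996691 in the ETS1 experiment and from 13518177 to 22544431 in the ZNF783 experiment, so that 3 counts, taken as the floor of detection, correspond to 0.0612 to 0.222 CPM (counts per 1000000 counts in the library). ETS1 siRNA replicate 1 stood apart. The chi-square per degree of freedom between its counts and those of its 2 group mates was 38.9 to 40.3, against 1.36 to 2.93 for all other pairs of replicates. The biological coefficient of variation of the fit was 0.0795 with this library and 0.0252 without it. Luminal prostate markers summed to between 3920 and 4430 CPM in every library. A set of 12 markers of leukocytes, endothelium and fibroblasts summed to 61.6 to 73.2 CPM with ETS1 siRNA and 61.8 to 64.7 in its controls, and to 36.4 to 39.7 with ZNF783 siRNA and 42.9 to 47.5 in its controls. Most of that came from COL1A1 and LUM. In each group 2 of the 12 were at 0 in all 3 libraries, and the T cell marker CD3E had no count in any library. The part of these markers in the results was not tested. These are bulk libraries, in which fewer cells of a type and less RNA per cell cannot be told apart.

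The targeted genes were examined before the shared response. ETS1 had between 0 and 3 counts in each of the 12 libraries, at or under the floor, so its knockdown could not be checked at this depth. ZNF783 had 12.9, 19.1 and 18.9 CPM with ETS1 siRNA and 21.4, 22.1 and 22.9 in the controls of that experiment. In its own experiment ZNF783 was at 27.9, 26.7 and 27.2 CPM with siRNA against 33.1, 34.3 and 34.9 in the controls. The 2 groups did not overlap in either experiment. ZNF783 was thus lower with both siRNAs, and its log2 difference was -0.37 with ETS1 siRNA and -0.32 with its own siRNA. In the fit of 12 libraries only the mean of the 2, at -0.35 ± 0.08 (SE), passed the test (adjusted p = 0.0148). Without ETS1 siRNA replicate 1 each passed, at -0.23 (adjusted p = 0.00109) and -0.31 (adjusted p = 1.42e-05). Corrected for GC content and length, the 2 ZNF783 differences were -0.24 and -0.23 with 12 libraries (adjusted p = 0.0946 and 0.165). With that correction and without replicate 1 they were -0.14 and -0.23 (adjusted p = 0.0452 and 0.000791). RB1, the retinoblastoma gene, differed by 0.23 in the mean, which did not pass (adjusted p = 0.0638). Without replicate 1 it rose by 0.10 with ETS1 siRNA and by 0.18 with ZNF783 siRNA, but with GC content and length corrected for too, neither the mean (adjusted p = 0.115) nor the ETS1 difference (adjusted p = 0.973) passed, while the ZNF783 difference did (0.10, adjusted p = 0.0267).

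**Figure D1:**
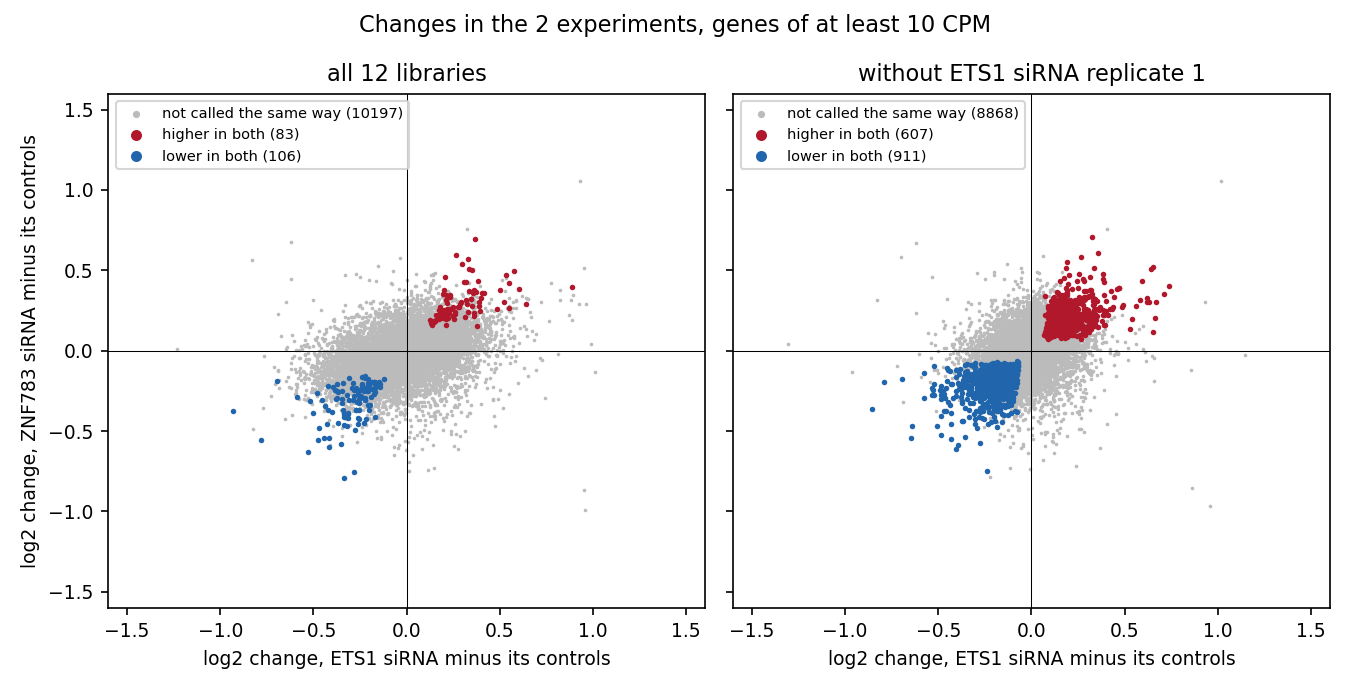
Log2 change with ETS1 siRNA (x axis) against that with ZNF783 siRNA (y axis), each relative to its own controls, for the 10386 genes whose mean level reached 10 CPM. The left panel uses all 12 libraries and the right panel leaves out ETS1 siRNA replicate 1, which leaves the cloud in place and raises the number of genes called the same way (red, higher, blue, lower) from 83 and 106 to 607 and 911.

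The mean of both experiments was called for 2445 genes (12.5% of those tested; 9.57% were called with ETS1 siRNA and 4.21% with ZNF783 siRNA), 1105 of them higher (5.64%) and 1340 lower (6.84%). That call can come from 1 experiment alone, and for 114 genes (0.582%) the signs in the 2 experiments were opposite, so membership required a call in each. By this rule 83 genes rose with both siRNAs (0.424% of genes tested) and 111 fell with both (0.566%), 0.990% together. Another 42 genes were called in opposite directions (0.214%), and the difference between the 2 changes passed for 1.68% of genes. Read as shares of each list, the 83 genes are 8.51% of those that rose with ETS1 siRNA and 27.9% of those that rose with ZNF783 siRNA, where 1.52% and 4.98% of all genes tested rose in the other experiment. The 111 genes are 12.3% and 21.1% of the genes that fell, against 2.69% and 4.59%. Without replicate 1 the mean of both was called for 29.3% of genes (12.8% higher, 16.5% lower), ETS1 siRNA for 22.7% and ZNF783 siRNA for 22.0%. The counts in each experiment were then 632 higher (3.16%) and 942 lower (4.71%), 7.86% together, and 311 opposite (1.55%). The 632 were 32.9% of the genes that rose with ETS1 siRNA and 31.4% of those that rose with ZNF783 siRNA, where 10.1% and 9.61% of all genes rose in the other experiment. The 942 were 36.0% and 39.4% of the genes that fell, against 11.9% and 13.1%. Of the first lists, 83 of the 83 and 109 of the 111 genes were called again. VGF and CDRT15P10 were the 2 that were not.

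Changes were small. Among the 83 genes that rose the log2 change had a median of 0.27 with ETS1 siRNA (range 0.12 to 0.89) and 0.27 with ZNF783 siRNA (range 0.15 to 0.70). Among the 111 that fell the medians were -0.28 (range -0.93 to -0.12) and -0.30 (range -0.93 to -0.16). No gene reached a 1.5-fold change in both experiments. Without replicate 1, 4 of the 632 and 1 of the 942 did, and the medians of those longer lists were 0.17 and 0.19 for genes that rose and -0.18 and -0.18 for genes that fell. ETS1 siRNA replicate 1 lay further from the controls than both of its group mates for 64 of the 83 and 67 of the 111. Nearest to the threshold, CIT was the last gene inside among those that rose (adjusted p = 0.0496 and 0.0402) and ZNF682 the first outside (0.0109 and 0.0506). SLC44A2 was the last inside among those that fell (0.0492 and 0.0186), and CDH24 the first outside (0.0501 and 0.0078).

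The size of the list depends on single libraries. Leaving out ETS1 control replicates 1, 2 and 3 left 61, 71 and 52 genes moving the same way. Leaving out ZNF783 siRNA replicates 1, 2 and 3 left 50, 65 and 56, and leaving out ZNF783 control replicates 1, 2 and 3 left 58, 47 and 73. Fitted separately, the 2 experiments shared 5 genes with all libraries and 1584 without ETS1 siRNA replicate 1. With all libraries the separate fit of ETS1 siRNA called 5 genes higher (0.0286%) and 4 lower (0.0229%), against 975 and 900 in the 1 fit. That of ZNF783 siRNA called 1992 (11.4%) and 2433 (13.9%), against 297 and 527. These counts cover genes tested in both. Calls with 12 libraries thus rest on a spread estimated over both experiments. The split also depends on scaling. Of the shared genes 42.8% were higher with factors from the trimmed mean of M values (TMM), 55.5% with upper-quartile factors (96 higher, 0.490% of genes tested, and 77 lower, 0.393%) and 66.1% with library size alone (123 higher, 0.628%, and 63 lower, 0.322%). For the mean of both experiments those shares were 45.2%, 54.6% (6.86% of genes higher, 5.72% lower) and 61.6% (8.25% higher, 5.14% lower).

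Base composition moved with the shared response. The median GC content of the transcript was 39.7% for the 83 genes that rose and 59.3% for the 111 that fell, against 48.3% over all genes tested. Below 45% GC lay 88.0% of the genes that rose and 37.3% of all genes tested. Above 55% lay 73.9% of the genes that fell and 28.4% of all genes. Genes that rose were also longer, with a median exon length of 7698 bases against 4837 for those that fell, 4131 over all genes and 5404 over genes of at least 10 CPM, a level that all 83 genes that rose and 106 of those that fell reached. The 632 and 942 genes found without replicate 1 had nearly the same medians, 39.6% and 59.1%. Correcting the libraries for both properties, GC content and exon length, left 0.546% of genes moving the same way with 12 libraries (53 higher, 0.270%, and 54 lower, 0.276%). In that fit 34 genes rose with ETS1 siRNA and fell with ZNF783 siRNA, and 21 did the reverse, against 29 and 13 as counted. The 34 were 5.55% of the genes that rose with ETS1 siRNA, where 2.05% of all genes fell with ZNF783 siRNA. The 21 were 3.31% of those that fell, against 1.52%. Without replicate 1 the correction left 861 genes (4.30%) moving the same way. Of these 345 were higher (1.72%) and 516 lower (2.58%), and 2.34% of genes were opposite. Of the 83 and 111 genes, 32 and 32 were called again with the correction in 12 libraries, and 72 and 81 with the correction and without replicate 1. Across 10386 genes of at least 10 CPM, Spearman's rho between the 2 log2 changes was 0.444 as counted and 0.143 with the correction. Without replicate 1 rho was 0.387 and 0.129. These values are described over genes that share the same libraries.

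**Figure D2:**
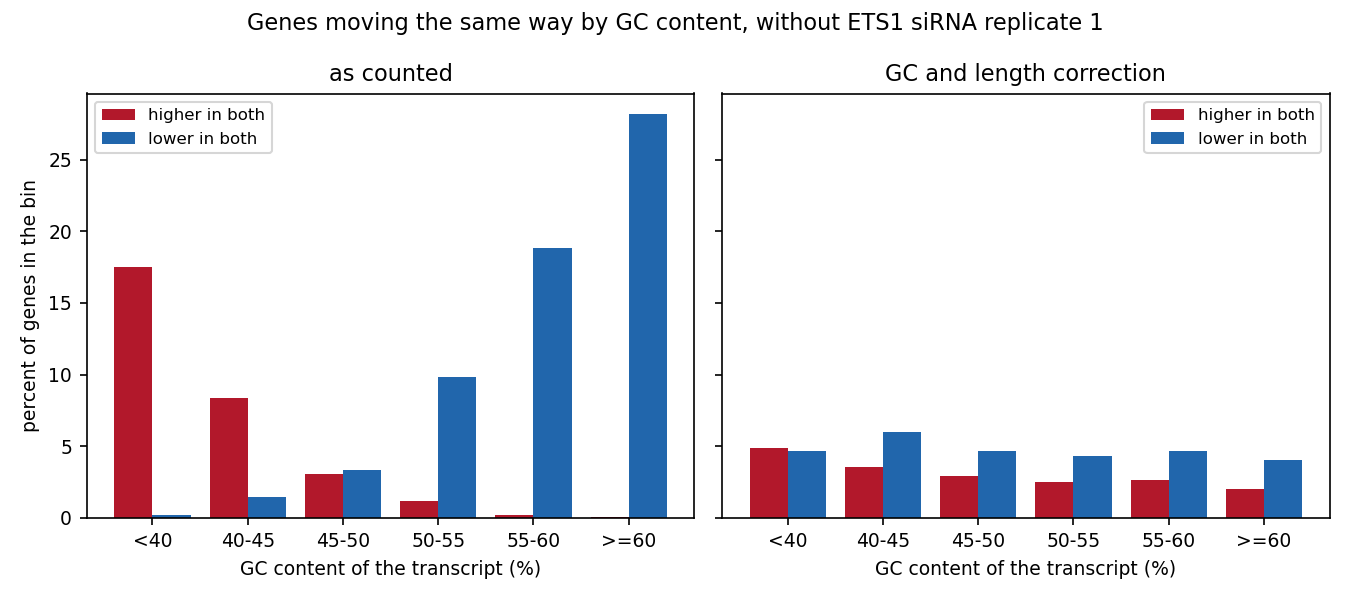
Percent of genes of at least 10 CPM (y axis) that were higher (red) or lower (blue) with both siRNAs, by GC content of the transcript (x axis), without ETS1 siRNA replicate 1. As counted (left), 17.5% of genes below 40% GC rose and 28.2% of genes of 60% GC or more fell; with the correction for GC content and length (right), every bin lay between 2.0% and 5.98%.

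The plot of shares by GC content shows the gradient in each direction. As counted and without replicate 1, the share of genes that rose with both siRNAs went from 17.5% below 40% GC to 0.0713% at 60% or more, while the share that fell went from 0.21% to 28.2%. Both experiments carried it: the median log2 change went from 0.08 to -0.13 with ETS1 siRNA and from 0.08 to -0.13 with ZNF783 siRNA. With the correction 4.88% of genes below 40% GC rose and 4.07% of those at 60% or more fell.

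Because the members move together, the promoters of 2 genes that rose and 2 that fell are shown, the first of each direction by the naming rule for which RefSeq holds a window. Each window covers 250 bases before to 50 after the start of transcription in GRCh38.p14, from the RefSeq promoter table. Capitals mark the GC box GGGCGG (bound by SP1), the CCAAT box CCAAT, the ETS motif CCGGAAG and the TATA box TATAAA, searched on both strands. FAM217B lies at chr20:59933529-59933828 (plus strand), ZNF678 at chr1:227563306-227563605 (plus), IGFBP3 at chr7:45921223-45921522 (minus) and CNIH2 at chr11:66277925-66278224 (plus).
FAM217B: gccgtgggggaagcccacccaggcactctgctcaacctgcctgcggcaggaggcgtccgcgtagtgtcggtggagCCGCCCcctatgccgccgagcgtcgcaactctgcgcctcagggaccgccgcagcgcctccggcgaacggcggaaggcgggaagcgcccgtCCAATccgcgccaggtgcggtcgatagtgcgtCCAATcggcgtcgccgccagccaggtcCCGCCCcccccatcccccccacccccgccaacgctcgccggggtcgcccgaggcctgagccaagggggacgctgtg
ZNF678: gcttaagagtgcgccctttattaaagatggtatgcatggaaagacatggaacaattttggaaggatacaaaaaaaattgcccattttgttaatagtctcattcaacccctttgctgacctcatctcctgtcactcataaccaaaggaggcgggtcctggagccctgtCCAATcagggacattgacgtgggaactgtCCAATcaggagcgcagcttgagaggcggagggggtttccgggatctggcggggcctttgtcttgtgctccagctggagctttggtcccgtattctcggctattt
IGFBP3: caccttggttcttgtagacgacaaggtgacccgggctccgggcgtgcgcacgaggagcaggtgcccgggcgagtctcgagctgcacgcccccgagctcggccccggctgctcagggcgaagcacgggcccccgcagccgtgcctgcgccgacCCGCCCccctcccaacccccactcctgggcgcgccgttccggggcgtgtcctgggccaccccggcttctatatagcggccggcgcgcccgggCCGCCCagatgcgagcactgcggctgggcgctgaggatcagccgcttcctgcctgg
CNIH2: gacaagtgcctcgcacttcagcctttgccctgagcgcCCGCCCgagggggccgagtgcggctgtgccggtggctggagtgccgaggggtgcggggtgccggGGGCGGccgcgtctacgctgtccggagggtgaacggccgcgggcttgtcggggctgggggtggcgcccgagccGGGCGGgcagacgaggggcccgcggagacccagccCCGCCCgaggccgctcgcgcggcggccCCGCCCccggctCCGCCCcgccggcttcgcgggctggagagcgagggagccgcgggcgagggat

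None of the 4 windows holds CCGGAAG. FAM217B and ZNF678 each hold 2 CCAAT boxes, whereas IGFBP3 and CNIH2 hold none and have 2 and 6 GC boxes. Windows were matched for 70 of the 83 genes that rose, 81 of the 111 that fell and 12561 of the 19594 tested. CCAAT occurred in 45.7% of promoters of genes that rose, 37.0% of those that fell and 36.3% of all tested. Without replicate 1 those shares were 46.9% and 35.2% of the longer lists. The letters TTTGAA, the cell cycle homology region of mitotic gene promoters, were in 15.7% of promoters of genes that rose, 7.41% of those that fell and 9.93% of all. CCGGAAG was in 12.9%, 9.88% and 17.5%, but in 92 of 512 and in 154 of 736 (20.9%) for the longer lists found without replicate 1, and in 21.4% of genes of at least 10 CPM. GGGCGG was in 77.1%, 82.7% and 67.9%, and the median GC content of the promoters was 65.5%, 70.7% and 65.0%. For genes of at least 10 CPM GGGCGG was in 72.7% of promoters. In the longer lists found without replicate 1 it was in 73.0% for genes that rose and 78.3% for those that fell. With the GC and length correction too, those shares were 75.8% and 72.7%. A match is a description of the letters only.

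The genes named were the 15 with the largest smallest change in each direction over both experiments, with and without replicate 1. Naming also required no overlap of siRNA and control libraries in either experiment, ETS1 siRNA replicate 1 aside. Separation of the groups in the named genes therefore follows from the rule, and all 83 and 111 genes moving the same way had it. FAM217B (ENSG00000196227, GRCh38 chromosome 20, 59933764 to 59948680, plus strand) had 18.8, 22.2 and 22.2 CPM with ETS1 siRNA and 14.1, 14.7 and 13.8 in the controls. With ZNF783 siRNA it was at 27.0, 26.8 and 25.9 CPM against 18.8, 18.3 and 19.5. It was higher in 6 of 6 siRNA libraries than in their own controls, by 0.54 ± 0.05 (SE) on the log2 scale in the mean of both (adjusted p = 0.000189), and by 0.57 without replicate 1. ZNF678, a zinc finger gene (ENSG00000181450, chromosome 1, 227563543 to 227677443, plus strand), was at 99.5, 74.7 and 76.0 CPM with ETS1 siRNA against 42.8, 47.1 and 44.8. In the ZNF783 experiment it had 51.6, 54.0 and 52.1 CPM against 39.5, 38.2 and 42.2. The siRNA libraries were all above their controls, and replicate 1 of ETS1 siRNA was the highest of the 12. The log2 change in the mean of both was 0.64 ± 0.07 (adjusted p = 0.000304), and 0.57 without replicate 1.

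STRADB, a pseudokinase that binds and activates the kinase LKB1 (ENSG00000082146, chromosome 2, 201387858 to 201480846, plus strand), was at 42.3, 39.8 and 38.6 CPM with ETS1 siRNA and 31.7, 31.2 and 30.7 in the controls. In the ZNF783 experiment STRADB had 37.5, 36.2 and 37.3 CPM against 22.4, 24.0 and 22.2. All 6 siRNA libraries were above their controls, and the log2 change was 0.37 with ETS1 siRNA and 0.70 with ZNF783 siRNA. GXYLT1, a xylosyltransferase that extends sugars on Notch receptors, was at 150, 141 and 139 CPM against 100, 103 and 101 with ETS1 siRNA. In the ZNF783 experiment GXYLT1 had 119, 121 and 125 CPM against 87.8, 97.6 and 94.7, and the mean log2 change was 0.44 (adjusted p = 3.14e-05). GUCY1A1, a subunit of the nitric oxide receptor guanylate cyclase, rose by 0.55 with ETS1 siRNA and 0.42 with ZNF783 siRNA. YOD1, a deubiquitinase, rose by 0.40 and 0.36. LCOR, a nuclear receptor corepressor, rose by 0.52 and 0.30, and PHLPP2, a phosphatase that acts on AKT, by 0.32 and 0.32. CPEB2, which binds polyadenylation elements in messenger RNA, rose by 0.37 in each. The other named genes that rose were CHIC1, ENPP5 (a nucleotide pyrophosphatase family member), KLHL28, IER3IP1, DCBLD2 (a transmembrane protein) and PRR11. Their log2 changes ran from 0.29 to 0.64. Exons of FAM217B, YOD1, KLHL28, STRADB, CPEB2, PHLPP2, DCBLD2 and PRR11 overlap a gene on the opposite strand, which counting did not separate, so their values are uncertain.

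**Figure D3:**
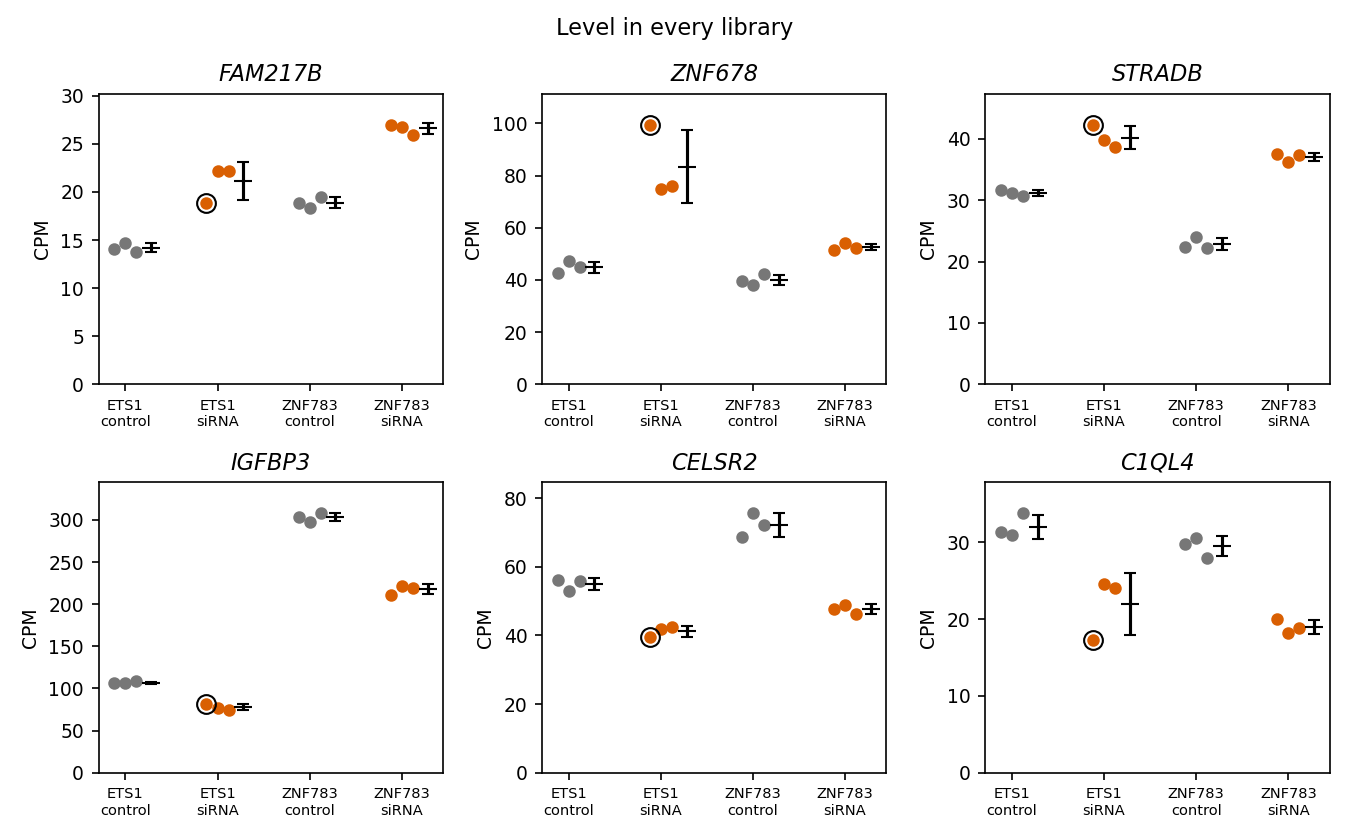
Level in CPM (y axis, from 0) of 3 genes that rose and 3 that fell, in each of the 12 libraries; points are libraries, the bars beside them the mean and SD of the group of 3, and a ring marks ETS1 siRNA replicate 1. In every panel the siRNA libraries lie on 1 side of their own controls, which naming required of all but ETS1 siRNA replicate 1. The control levels of IGFBP3 differ between the experiments (107 and 303 CPM).

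IGFBP3, a secreted protein that binds insulin-like growth factors (ENSG00000146674, chromosome 7, 45912245 to 45921874, minus strand), was at 81.2, 77.1 and 74.4 CPM with ETS1 siRNA and 107, 107 and 109 in the controls. In the other experiment IGFBP3 had 211, 222 and 219 CPM against 304, 298 and 308. The control level was higher in the second experiment, while the log2 change was nearly the same, -0.47 and -0.48 (mean -0.47 ± 0.03, adjusted p = 1.41e-05). CELSR2, an adhesion receptor of the planar cell polarity pathway (ENSG00000143126, chromosome 1, 109250019 to 109275750, plus strand), was at 39.4, 41.8 and 42.4 CPM against 56.1, 53 and 55.9 with ETS1 siRNA. The ZNF783 siRNA libraries had 47.7, 48.9 and 46.1 CPM against 68.7, 75.6 and 72.2, and the siRNA libraries lay below their controls in 6 of 6. C1QL4, a secreted protein of the C1q family, was at 17.3, 24.6 and 24.1 CPM against 31.3, 31.0 and 33.8, with replicate 1 the lowest. With ZNF783 siRNA the lowest library had 18.2 CPM and all 3 lay below the controls, at 29.5 ± 1.31 CPM (SD, n = 3), with a log2 change of -0.63. Its mean log2 change of -0.58 was -0.51 without replicate 1.

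CRIP2, a LIM domain protein, had the largest fall of the named genes with ETS1 siRNA, at 61.3, 75.4 and 73.7 CPM against 131, 130 and 141. With ZNF783 siRNA it was at 152, 154 and 150 CPM against 195, 203 and 192. The log2 changes, -0.93 and -0.37, themselves differed between experiments (difference 0.56 ± 0.09, adjusted p = 0.0102). CNIH2, an auxiliary subunit of glutamate receptors, fell by 0.42 with ETS1 siRNA and by 0.54 with ZNF783 siRNA. NPTXR, the neuronal pentraxin receptor, fell by 0.42 and by 0.37, and KCNC4, a voltage-gated potassium channel, by 0.34 and by 0.46. PTGES, which makes prostaglandin E, fell by 0.44 and by 0.54, and MMP17, a membrane-anchored metalloproteinase, by 0.43 and by 0.46. FSCN1, the actin bundler fascin, fell by 0.40 and by 0.38. DLL4, a Notch ligand, fell by 0.44 and by 0.34, and SFN, the 14-3-3 protein sigma, by 0.35 and by 0.33. CTXN1, the hypoxia-induced NDUFA4L2 and the signalling adaptor SHC2 were the other named genes, at -0.45 to -0.32. CNIH2, CTXN1 and NDUFA4L2 overlap a gene on the opposite strand. With the correction for GC content and length in 12 libraries, 21 of the 30 named genes were called again in each experiment. YOD1, KLHL28, CNIH2, CTXN1, MMP17, DLL4, SFN, NDUFA4L2 and SHC2 were the 9 that were not. With the correction and without replicate 1 all 30 were called again. Separate fits of the experiments with all libraries called 2 of the 30 in each.

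**Figure D4:**
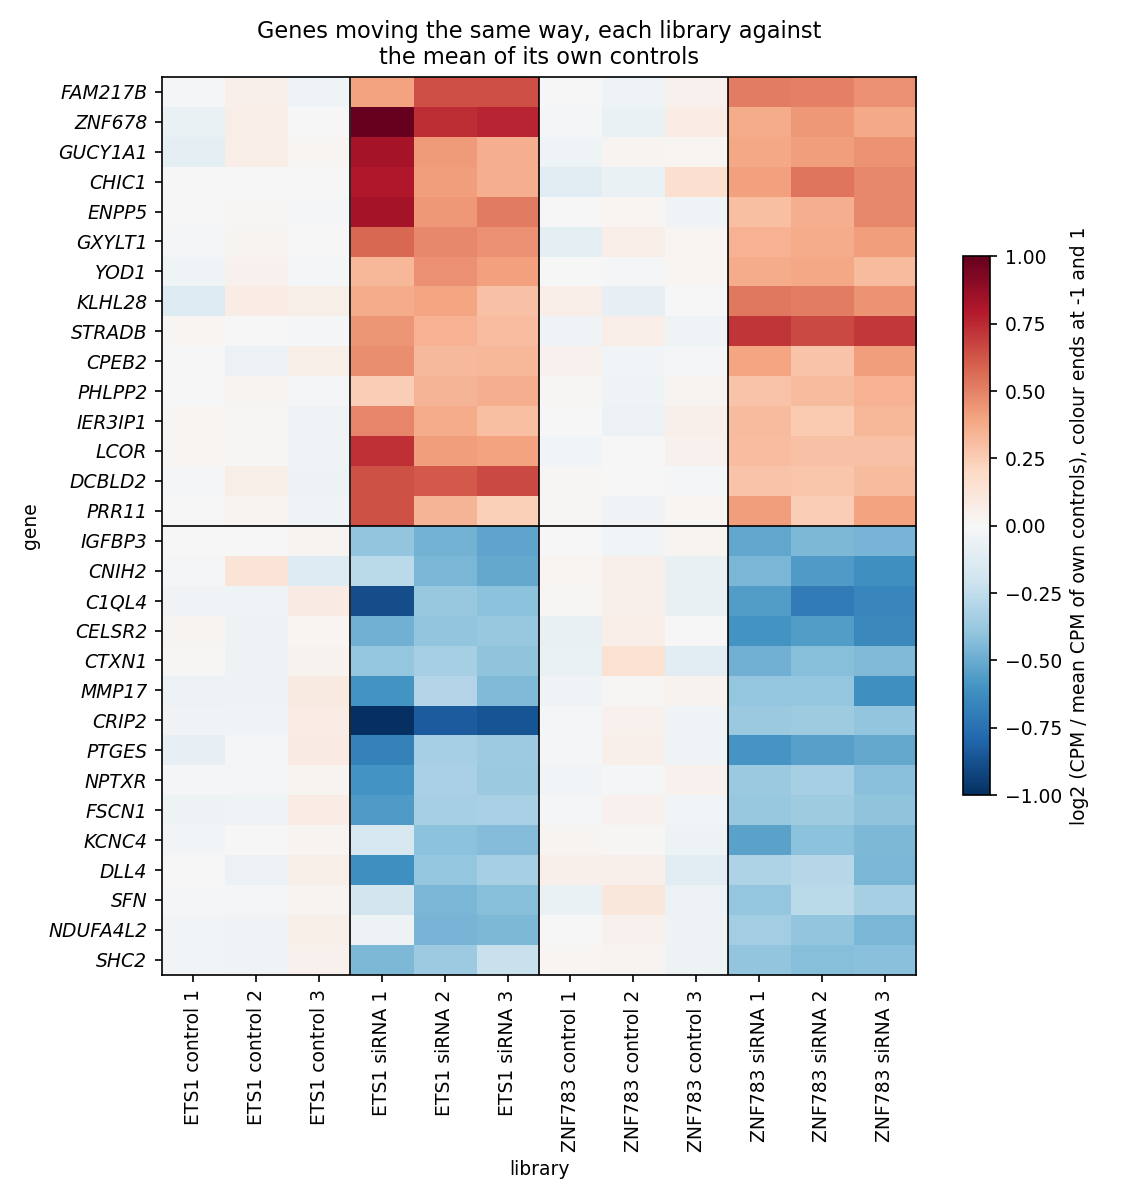
Log2 ratio of each library (x axis) to the mean of its own controls for the 30 named genes (y axis), from blue (lower) to red (higher), with colour ending at -1 and 1. Both siRNA groups are red for the 15 genes in the upper block and blue for the 15 in the lower block, and ETS1 siRNA replicate 1 departs from its group mates towards stronger colour for genes such as ZNF678 (99.5 CPM) and C1QL4 (17.3 CPM) and towards paler colour for FAM217B (18.8 CPM).

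The counts of each gene list are to be read against all genes tested. In the mean of both 5.64% were higher and 6.84% lower, and in each experiment 0.424% and 0.566%. Without replicate 1 the shares in each experiment were 3.16% and 4.71%, and with the GC and length correction too 1.72% and 2.58%. Genes of G2 and mitosis, which build the spindle and divide the cell, were mostly higher. Of 40 such genes tested, 25 were higher and 1 was lower in the mean of both experiments. In the 12 libraries 3 were called in each experiment, all higher. Without replicate 1, 21 of the 40 rose with both siRNAs, 0 fell with both and 1 went opposite ways. With the GC and length correction 16 rose with both and 2 went opposite ways. The median log2 change of the list in the mean of both was 0.21, 0.15 without replicate 1 and 0.13 with the correction too, beside medians of -0.00 over all genes in the first 2 and 0.00 in the third. NDC80, which links kinetochores to microtubules, was at 101, 90.4 and 91.9 CPM with ETS1 siRNA against 79.7, 81.1 and 80.4. With ZNF783 siRNA NDC80 was at 106, 103 and 109 CPM against 85.8, 84.4 and 82.0, above the controls in 6 of 6. NEK2, a centrosomal kinase, rose by 0.17 and 0.26, and ECT2, which drives cytokinesis, by 0.26 and 0.20. TOP2A, the mitotic topoisomerase, rose with ETS1 siRNA (0.28, adjusted p = 0.0048) and was 0.15 higher with ZNF783 siRNA (adjusted p = 0.108), and both passed without replicate 1. Every scaling alternative left the list median above 0.

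Genes of homologous recombination and the Fanconi anaemia pathway gave 9 higher (28.1%, against 5.64% of all genes) and 0 lower of 32 in the mean of both, with none called in each experiment in 12 libraries. Without replicate 1, 7 rose with both siRNAs (21.9%, against 3.16%) and 0 fell, but 1 and 0 with the GC and length correction, where 3.12% is near the 1.72% of all genes. BRCA2 was 0.53 higher with ETS1 siRNA, 0.33 without replicate 1, and 0.21 higher with ZNF783 siRNA (adjusted p = 0.421), which passed without replicate 1 (0.22, adjusted p = 0.000206). With the correction and without replicate 1 BRCA2 was the 1 gene of the list called in each experiment. In the mean of both it passed (adjusted p = 0.0155). Among RB, E2F, CDK4/6 and CDK inhibitor genes the directions were mixed, 3 higher and 5 lower of 25 in the mean and 3 against 3 called in each without replicate 1. E2F4, a repressor partner of the RB family, was at 71.0, 68.0 and 68.2 CPM against 78.0, 77.8 and 79.9 with ETS1 siRNA. With ZNF783 siRNA E2F4 was at 71.3, 72.5 and 70.4 CPM against 80.5, 88.6 and 84.1, and it fell by 0.19 and by 0.24. CCND1, which encodes cyclin D1, and CDKN1A, a CDK inhibitor, fell with ETS1 siRNA by 0.24 and by 0.48. Their log2 differences with ZNF783 siRNA were -0.00 (adjusted p = 0.993) and -0.03 (adjusted p = 0.849), and the difference between experiments passed for both (adjusted p = 0.0159 and 0.0335). Of 22 ETS family genes tested, 1 moved the same way with both in 12 libraries, ELK4, which rose by 0.49 and 0.26.

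A list of genes with ZNF symbols, most of them zinc finger repressors, had 80 higher (17.9%) and 20 lower (4.48%) of 446 in the mean of both. The list did not hold every gene with such a symbol. In 12 libraries only 1 rose and 1 fell with both siRNAs (0.224% each, below the 0.424% and 0.566% of all genes). Without replicate 1, 53 rose (11.9%) and 12 fell (2.69%) with both siRNAs, and 31 (6.95%) and 2 (0.448%) with the GC and length correction. The list median was 0.10, 0.07 without replicate 1 and 0.05 with the correction too. Besides ZNF678, ZNF273 was 0.77 higher with ETS1 siRNA and 0.42 higher with ZNF783 siRNA (adjusted p = 0.0817), and without replicate 1 both passed. ZNF598, which senses collided ribosomes, fell with both, by 0.17 and by 0.26, a call that the GC and length correction ended with 12 libraries (0.08 and -0.09, adjusted p = 0.568 and 0.675) and without replicate 1 (-0.03 and -0.09, adjusted p = 0.668 and 0.104). Zinc finger genes of clustered families have near-identical copies, between which reads may be split.

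Genes of the machinery that siRNAs use were examined as a list. Of 18 genes of small RNA silencing, 5 were higher and 0 lower in the mean of both. DICER1, which cuts small RNA precursors, was at 296, 226 and 224 CPM with ETS1 siRNA against 199, 199 and 194. With ZNF783 siRNA DICER1 was at 237, 242 and 243 CPM against 174, 161 and 173. Its rise with ETS1 siRNA was 0.33, and 0.19 without replicate 1, the highest library. With ZNF783 siRNA it rose by 0.51. TNRC6B, a scaffold of Argonaute complexes, rose by 0.25 and 0.27. TNRC6A rose by 0.48 with ZNF783 siRNA and differed by 0.05 with ETS1 siRNA (adjusted p = 0.612). The rest of the list did not move one way, with 2 genes called in opposite directions in 12 libraries and 3 without replicate 1, and its median was 0.01. DICER1 overlaps a gene on the opposite strand.

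DCP2, the catalytic subunit that removes the cap of messenger RNA, was at 172, 216 and 215 CPM with ETS1 siRNA against 165, 170 and 167, with replicate 1 the nearest to the controls. With ZNF783 siRNA DCP2 was at 188, 184 and 182 CPM against 119, 118 and 129, and it rose by 0.27 and 0.60. XRN1, the exonuclease that degrades decapped RNA, rose by 0.29 and 0.30. These were the only 2 of 41 decapping and decay genes called in each experiment in 12 libraries, and without replicate 1 there were 2 that rose and 2 that fell. The list median was 0.05 and turned to -0.01 under the GC and length correction without replicate 1. Of 33 genes of the interferon and double-stranded RNA response, 1 was higher and 0 lower in the mean of both, and none was called in each experiment, while the list median was -0.01 and turned to 0.01 with upper-quartile factors. RSAD2, an interferon-induced antiviral gene, was the 1 that passed (0.31, adjusted p = 0.0459), at 4.11 to 7.25 CPM over the group means. Without replicate 1, 0 rose and 1 fell with both. IFIT3 was near the floor in each group, at 0.0872 to 0.687 CPM.

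In the list of alpha-arrestins and the LKB1-AMPK pathway 5 of 16 were higher and 0 lower in the mean of both. STRADB and ARRDC3 were called in each experiment, and without replicate 1 there were 4 that rose and none that fell. ARRDC3, an alpha-arrestin that directs receptors to degradation, was at 69.7, 63.4 and 61.1 CPM against 49.9, 52.2 and 52.3 with ETS1 siRNA. With ZNF783 siRNA ARRDC3 was at 90.8, 87.2 and 84.9 CPM against 55.3, 58.6 and 63.1. PRKAA2, a catalytic subunit of AMPK, rose by 0.57 with ETS1 siRNA and was 0.26 higher with ZNF783 siRNA (adjusted p = 0.0563), and without replicate 1 both passed. PRKAB2, a scaffold subunit, rose by 0.35 with ZNF783 siRNA and differed by 0.05 with ETS1 siRNA (adjusted p = 0.411), and the difference between experiments passed (0.29, adjusted p = 0.0279).

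Lipid genes divided evenly in 12 libraries. Of 32 genes of cholesterol and fatty acid synthesis, 6 were higher and 6 lower in the mean of both. In each experiment 2 rose and 2 fell. Without replicate 1, 13 were higher and 7 lower in the mean of both (40.6% and 21.9%, against 12.8% and 16.5% of all genes). In that fit 5 rose and 5 fell with both siRNAs. With the GC and length correction too, 14 were higher and 4 lower in the mean of both. These are 43.8% and 12.5%, against 9.08% and 11.6% of all genes. In that fit 7 rose and 3 fell with both siRNAs. MSMO1, a sterol oxidase of cholesterol synthesis, was at 169, 152 and 151 CPM with ETS1 siRNA against 126, 125 and 121. With ZNF783 siRNA MSMO1 was at 125, 124 and 128 CPM against 106, 95.2 and 101. SQLE, the squalene epoxidase, rose by 0.26 and 0.24. HMGCS1, an early enzyme of the same pathway, rose by 0.44 with ZNF783 siRNA and was 0.14 higher with ETS1 siRNA (adjusted p = 0.0539). SREBF1, a transcription factor of fatty acid synthesis, was at 205, 246 and 242 CPM against 293, 288 and 300 with ETS1 siRNA. With ZNF783 siRNA SREBF1 was at 167, 171 and 177 CPM against 217, 231 and 218, below the controls in 6 of 6. SCD, the stearoyl-CoA desaturase, fell by 0.14 and by 0.23.

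More genes of energy metabolism were called lower than higher, while most did not pass in 12 libraries. Of 33 genes of glycolysis and the hypoxia response, 10 were lower and 2 higher in the mean of both, with 3 lower in each experiment. Without replicate 1, 13 fell with both and 0 rose, while 3 went opposite ways, and with the GC and length correction 7 fell and 1 rose. HK2, hexokinase 2, was at 135, 165 and 161 CPM with ETS1 siRNA against 187, 186 and 184. With ZNF783 siRNA HK2 was at 141, 138 and 137 CPM against 177, 185 and 175. PKM, the pyruvate kinase, fell by 0.15 and by 0.20, and SLC2A1, the glucose transporter, by 0.21 and by 0.25. TPI1, a glycolytic isomerase, fell by 0.57 with ETS1 siRNA and differed by -0.11 with ZNF783 siRNA (adjusted p = 0.287), and the 2 changes differed (adjusted p = 0.00629). Nuclear-encoded subunits of the respiratory chain were 8 lower and 1 higher of 59 in the mean of both, with none called in each. Without replicate 1, 15 fell with both, 1 rose and 1 went opposite ways, and with the correction 12 fell and 0 rose. COX4I1, a subunit of complex IV, was 0.33 lower with ETS1 siRNA (adjusted p = 0.0355) and 0.19 lower with ZNF783 siRNA (adjusted p = 0.293), and both passed without replicate 1. NDUFB5, of complex I, was the 1 higher, by 0.21.

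The ribosomal lists differed from each other. Of 69 mitochondrial ribosomal proteins, 5 were lower (7.25%, near the 6.84% of all genes) and 1 higher in the mean of both, and 10 fell and 1 rose with both siRNAs without replicate 1, with the same counts under the correction. Of 76 cytosolic ribosomal proteins, 15 were lower and 0 higher in the mean of both, yet none moved the same way with both siRNAs, with or without replicate 1. Their median log2 change was -0.33 with ETS1 siRNA (-0.22 without replicate 1) and -0.03 with ZNF783 siRNA, where 1 was higher and 0 lower. Without replicate 1, 9 went opposite ways. RPL23, for example, was at 459, 488 and 517 CPM with ETS1 siRNA against 590, 608 and 631, and with ZNF783 siRNA it ranged from 358 to 382 CPM against 353 to 401, where the groups overlapped. The ER chaperone list went further: of 26 genes, 0 moved the same way and 3 opposite ways in 12 libraries, and 1 and 10 without replicate 1. HSPA5, the chaperone BiP, rose with ETS1 siRNA by 0.24 and fell with ZNF783 siRNA by 0.52, a difference of -0.76 ± 0.06 (adjusted p = 6.44e-05). The mean of the 2 experiments was therefore called for lists and genes on which the experiments did not move together.

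**Figure D5:**
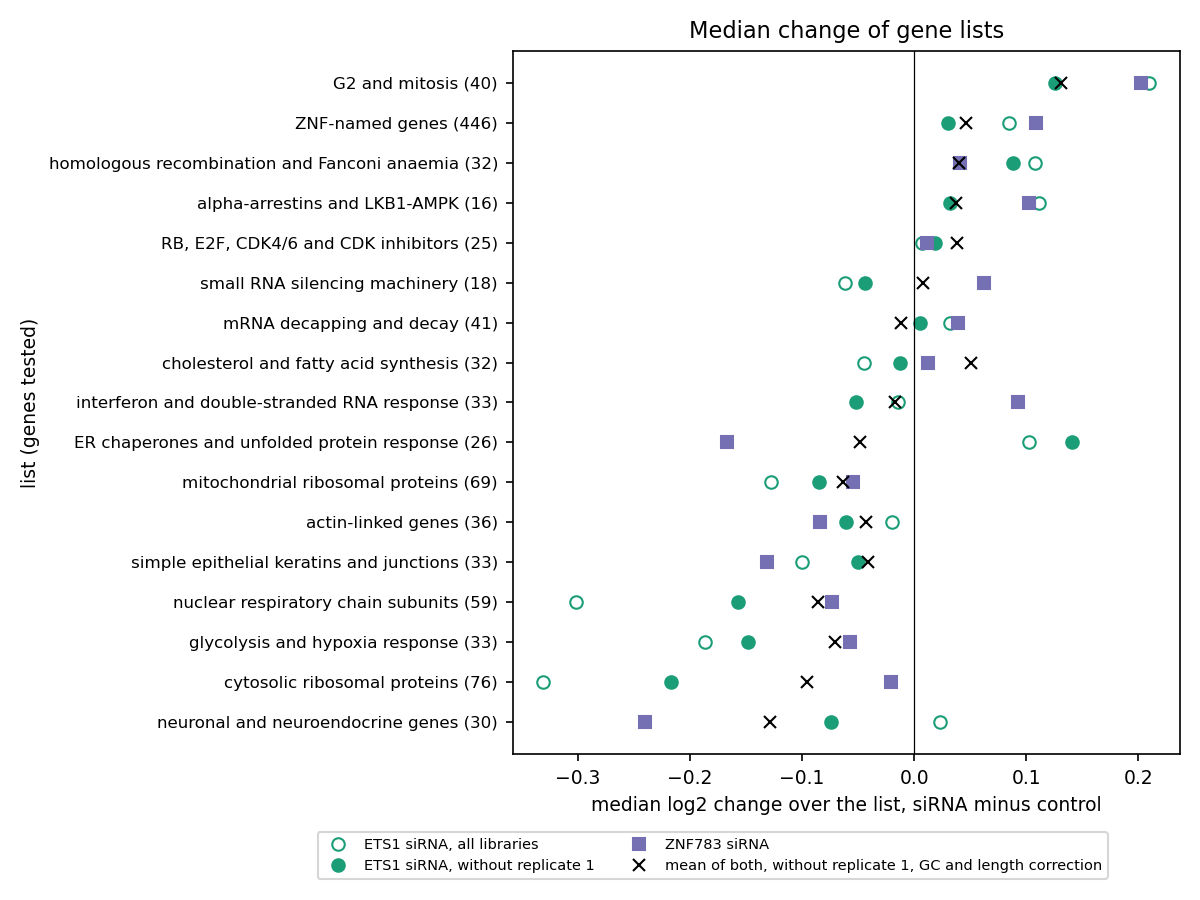
Median log2 change (x axis) of each of 17 gene lists (y axis, with the number of genes tested), for ETS1 siRNA with all libraries (open circles) and without replicate 1 (filled circles), for ZNF783 siRNA in the fit without that library (squares), and for the mean of both with the GC and length correction and without replicate 1 (crosses). The G2 and mitosis list lies at 0.21, 0.13 and 0.20, in that order, and ER chaperones lie on opposite sides of 0 in the 2 experiments (0.14 without replicate 1, -0.17).

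Epithelial and cytoskeletal genes were called lower more often than higher, while most did not pass in 12 libraries. Of 33 simple epithelial keratins and junction genes, 9 were lower and 1 higher in the mean of both, and 3 were lower in each experiment. Without replicate 1, 7 fell with both and 0 rose, and 4 and 0 with the GC and length correction. KRT19, a keratin of simple epithelia, was at 275, 317 and 313 CPM with ETS1 siRNA against 447, 439 and 473. With ZNF783 siRNA KRT19 was at 467, 517 and 480 CPM against 577, 626 and 582, and the groups did not overlap in either. KRT8, another simple keratin, fell by 0.32 and by 0.28, and SPINT1, a membrane protease inhibitor, by 0.22 and by 0.17. For SPINT1 the GC and length correction ended the call, at -0.03 and -0.05 with 12 libraries (adjusted p = 0.846 and 0.818) and, without replicate 1, with ZNF783 siRNA (-0.05, adjusted p = 0.192). Of 36 actin-linked genes, 9 were lower and 2 higher in the mean of both. Without replicate 1, 11 fell and 1 rose with both, and 7 and 0 with the correction. MARCKSL1, which binds actin and membranes, fell by 0.69 and by 0.19, a difference that itself passed (adjusted p = 0.00147), and CFL1, the actin-severing cofilin, by 0.21 and by 0.18. Of 30 neuronal and neuroendocrine genes, 9 were lower and 1 higher in the mean of both. Without replicate 1, 7 fell and 1 rose with both, but 3 and 0 with the correction. The list median was -0.16 in the mean of both, -0.26 with ZNF783 siRNA and 0.02 with ETS1 siRNA. Without replicate 1 those medians were -0.18, -0.24 and -0.07. Taken alone, ETS1 siRNA had 9 of the list lower and 0 higher in 12 libraries, and 12 lower and 5 higher without replicate 1. VGF, a neuropeptide precursor, was at 289, 390 and 374 CPM with ETS1 siRNA against 420, 437 and 474, and at 329, 344 and 340 against 568, 635 and 553 with ZNF783 siRNA. Without replicate 1 its log2 difference with ETS1 siRNA was -0.22 (adjusted p = 0.0516).

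Transcription factors and their regulators were among the other members, picked here after their values were seen. ID1 and ID3, inhibitors of helix-loop-helix factors, fell by 0.34 and by 0.27 with ETS1 siRNA and by 0.39 and by 0.37 with ZNF783 siRNA. GATA2, which assists the androgen receptor in prostate cells, fell by 0.26 and by 0.37, JUNB, of the AP-1 family, by 0.22 and by 0.30, and SOX4 by 0.20 and by 0.34. FOXO3, a forkhead factor downstream of AKT, rose by 0.19 and 0.35, and REST, a repressor of neuronal genes, by 0.20 and 0.26. NRARP, a feedback inhibitor of Notch signalling, fell by 0.24 and by 0.22. When the GC and length correction was combined with leaving out replicate 1, all of these but NRARP were called again. The remaining 24 of the 41 gene lists, the ETS family among them, of 5 to 45 genes tested, held at most 1 gene that rose and 2 that fell with both siRNAs in 12 libraries, and at most 4 and 8 without replicate 1. Some of these shares lay above those of all genes. Without replicate 1, 8 of 44 ER to Golgi transport genes fell with both (18.2%, against 4.71%) and 2 rose. Of 23 androgen receptor induced genes 4 rose (17.4%, against 3.16%) and 1 fell. With the GC and length correction too, 7 of 36 proteasome subunits fell (19.4%, against 2.58%) and 0 rose. Like DICER1, a number of the genes above share exons with a gene on the opposite strand and are uncertain for that reason: CCND1, CDKN1A, ELK4, ZNF273, ZNF598, RSAD2, ARRDC3, HMGCS1, SREBF1, HK2, SLC2A1, TPI1, COX4I1, KRT8, SPINT1, CFL1, JUNB, SOX4 and REST. Of the genes named from the lists and the other members that were called in each experiment with 12 libraries, the GC and length correction with the same libraries ended that call for NDC80, NEK2, ECT2, E2F4, ELK4, DCP2, XRN1, ARRDC3, PKM, SLC2A1, KRT19, CFL1, MARCKSL1, VGF, ID1, ID3, GATA2, JUNB, REST and NRARP, besides ZNF598 and SPINT1. Opposite-strand overlap was found for 34 of the 83 and 44 of the 111 genes, and for 36.8% of all genes tested.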

How the data were processed

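RNA was sequenced from 12 libraries of 22Rv1 cells in 4 groups of 3, taken from the labels. The authors deposited unnormalized counts for each gene, with 1 table per experiment. Per the file headers, paired reads were counted over exons with featureCounts 2.0.1 without a strand option, against GRCh38 release 107. The submitters' processing notes give hg38 as the build; no aligner version is stated in what was used here.

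The tables were joined by gene identifier (61860 genes; 99.8% matched to a symbol). Genes were kept by edgeR's default filter, scaled with TMM factors, and tested in 1 fit of the 4 groups with edgeR 4.0.16 (R 4.3.3, robust quasi-likelihood F test, Benjamini-Hochberg adjustment over all genes tested). The contrasts were each siRNA minus its controls, their mean and their difference. The scripts were tested on simulated counts. That simulation held no outlying library and no added trend with GC content, so it cannot judge how either affects the calls. GC content of the longest transcript, exon length (the merged exons of all transcripts of a gene) and gene coordinates come from GENCODE 29. Of the genes tested 97.2% had them. The correction used per-library splines with 5 degrees of freedom as offsets. Promoters come from RefSeq.

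The members, the gene lists (41) and the tests were chosen with earlier results of these data known. Genes named are ETS1, ZNF783 and RB1, 15 members in each direction, and up to 4 of each list by adjusted p. The 15 had the largest smallest log2 change over both experiments and both fits, with at least 10 CPM in each experiment. They also had no overlap with controls, a rule that left ETS1 siRNA replicate 1 aside. Alternatives were other scalings, filters and tests (DESeq2 1.42.0, limma 3.58.1), stricter thresholds, the GC and length correction, a replicate block and leaving out each library.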

Additional observations from a re-analysis of the deposited data

Results flagged for a closer look

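For the genes below, the log2 change with ZNF783 siRNA minus that with ETS1 siRNA passed the test of the difference itself in 1 fit of 12 libraries (edgeR, Benjamini-Hochberg adjustment over all genes tested). Groups of 3 libraries were too small for a check of single outlying values.

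Members that moved the same way but by different amounts were DCBLD2 (difference -0.35, adjusted p = 0.02), CRIP2 (0.56, adjusted p = 0.0102) and MARCKSL1 (0.51, adjusted p = 0.00147). In each the change with ETS1 siRNA was the larger. This count depends on ETS1 siRNA replicate 1: without it the sizes differed for 81 of the 632 genes that rose and 120 of the 942 that fell. Among them STRADB (0.38, adjusted p = 7.25e-05), ARRDC3 (0.31, adjusted p = 7.25e-05), DCP2 (0.25, adjusted p = 2.55e-05) and DICER1 (0.33, adjusted p = 3.27e-08) rose more with ZNF783 siRNA.

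Among the other named genes, the ER chaperones PDIA4, HYOU1 and HSPA5 differed by -0.58, -0.69 and -0.76 (adjusted p = 0.00262, 0.000182 and 6.44e-05). HYOU1 and HSPA5 moved in opposite directions. The actin-binding TPM4 rose by 1.01 with ETS1 siRNA and was 0.13 lower with ZNF783 siRNA, a difference of -1.14 (adjusted p = 0.000989). CCND1, CDKN1A and TPI1 fell with ETS1 siRNA, and the change with ZNF783 siRNA was higher by 0.24, 0.44 and 0.46 (adjusted p = 0.0159, 0.0335 and 0.00629). TNRC6A, HMGCS1 and PRKAB2 rose with ZNF783 siRNA, with differences of 0.43, 0.30 and 0.29 (adjusted p = 0.0341, 0.0303 and 0.0279). ZNF616 rose with ETS1 siRNA by 0.67 and the difference was -0.55 (adjusted p = 0.0415). The cause of these differences was not tested.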

How the results depend on the processing

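The mean of both experiments was called for 2445 genes and 194 moved the same way in each. Counts that moved by more than 1.5 times were, for the mean and for genes moving the same way, 5868 and 1574 without ETS1 siRNA replicate 1, 3751 and 342 with no expression filter, 5662 and 1305 in limma-voom with sample quality weights, and with the GC and length correction 1270 for the mean and 107 moving the same way. That correction without replicate 1 gave 4139 and 861. An adjusted p below 0.01 left 725 and 26, and at least a 1.5-fold change 81 and 0. The DESeq2 Wald test gave 307 genes moving the same way, and separate fits of the experiments 5. Leaving out 1 library at a time gave 1171 to 5868 and 47 to 1574; of the other 11 libraries the highest were 3351 and 208. For the mean, leaving out ETS1 control replicates 1 and 3 gave 1401 and 1171, ZNF783 siRNA replicates 1 to 3 1403, 1455 and 1400, and ZNF783 control replicates 1 and 2 1520 and 1242. Chosen after seeing the data, and all without ETS1 siRNA replicate 1, DESeq2 size factors gave 5879 and 1602, library size alone 5960 and 1557, the DESeq2 Wald test 4570 and 1147, and separate fits 1584 genes moving the same way.

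Replicate numbers did not pair the libraries: the correlation of deviations between same-numbered siRNA and control libraries was -0.049 to 0.062. With the replicate number as a block the counts were 1699 and 37, with the block and without ETS1 siRNA replicate 1 5680 and 1520, and with the block and the GC and length correction 658 and 25.

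For the 30 named genes the mean of both lost its call in 12 of 840 values, 6 with the GC and length correction and 6 with that and the block, and none reversed. Their call in each experiment was lost more often: 21 kept it with the correction, 22 in limma-voom, 28 with library size alone, 17 with the replicate block, 11 with both, 2 in separate fits, and 16 to 30 with 1 library left out. Over all 97 named genes 91 of 2715 values of the mean lost the call, 39 gained it and none reversed, and 180 medians of the 41 lists moved by more than the spread between libraries. The causes were not tested. Depth limits ETS1 itself, which was at or under the floor of 3 counts in every library.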
